A study of Drosophila melanogaster with 3 samples.

Results

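Some intronic RNAs of the Drosophila egg come from genes for which more than 1 poly(A) signal was listed. These RNAs are called sisRNAs, for stable intronic sequence RNA, because a piece of the intron outlasts splicing, and the gene that carries the intron is the host. The hosts described here are those whose entry in the authors' list of 295 host genes holds 2 or 3 different poly(A) signal hexamers. There were 65 such genes, and 6 of them that belong to other named gene families were set aside by symbol, which left 59 genes. Of these 59 hosts, 53 list 2 hexamers and 6 list all 3.

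RNA came from unfertilized eggs of the y w genotype, a laboratory strain marked by the body-colour mutation yellow and the eye-colour mutation white. Ribosomal RNA was removed from the total RNA, and 3 libraries were made, namely the polyA-plus fraction, the polyA-minus fraction and the rRNA-depleted total RNA, with 1 library each. The read counts stand in a single column that names no library, so each host has at most 1 value, no replicate exists, and no comparison between fractions was possible. The library depth and the lengths of the sisRNAs are unknown from the lists, so a higher count can mean a longer sisRNA as well as a more abundant one.

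Most introns are debranched and degraded soon after splicing. A poly(A) signal is the hexamer in a transcript that the cleavage and polyadenylation specificity factor binds, upstream of the place where the transcript is cut and a poly(A) tail is added. In the egg, which makes little or no RNA of its own, the length of poly(A) tails is a main control over which maternal RNAs are translated and how long they last.

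Only 3 hexamers occur in the list, and they are shown here because the choice of the 59 hosts rests on them. They are written 5′ to 3′ as RNA, without capitals.
canonical: aauaaa
variant 1: auaaaa
variant 2: auuaaa
Counted from 1 at the 5′ end, variant 2 differs from the canonical signal by A2U. Variant 1 differs from it by A2U and U3A.

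A pair of hexamers need not occupy 2 separate places. The shortest stretches that hold each set, found by enumeration, are given next. Capitals mark the bases shared by more than 1 hexamer of the named set.
canonical with variant 1: aAUAAAa
canonical with variant 2: auuaAAuaaa
variant 1 with variant 2: auaaaAuuaaa
variant 1 with variant 2, other order: auuaaAuaaaa
all 3: auuaAAUAAAa
The canonical signal and variant 1 fit in 7 bases with 5 of them shared, so a canonical signal followed by a single a already contains both. The other pairs need at least 10 or 11 bases. All 3 hexamers fit in 11 bases, and the second stretch for variants 1 and 2 has the same letters as that one and so also contains the canonical signal. Hosts listed with variants 1 and 2 alone would therefore not hold that second stretch, if every hexamer found was listed. The lists do not say where each hexamer lies, so how many of the 59 hosts have overlapping rather than separate signals is unknown.

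The pair that overlaps most was also the commonest. The canonical signal with variant 1 was listed for 33 hosts, the canonical signal with variant 2 for 13, and variants 1 and 2 without the canonical signal for 7. The 6 hosts with all 3 were cl, tun, Dbp80, CG11241, syd and TMI. Altogether the canonical signal was listed for 52 of the 59 hosts, variant 1 for 46 and variant 2 for 26. Among all listed hosts these numbers were 137, 84 and 71, which include the hosts of the pairs themselves. As the only hexamer, the canonical signal was listed for 72 hosts, variant 1 for 30 and variant 2 for 40, with the same symbols set aside. The part of overlap and of these frequencies in the order of the pairs was not tested. Over the whole list, 51 of the 84 hosts with variant 1 had a further hexamer (60.7%, exact Clopper-Pearson 95% interval 49.5% to 71.2%), against 41.6% of hosts with the canonical signal (33.3% to 50.3%) and 39.4% of hosts with variant 2 (28.0% to 51.7%). These counts restate the choice of hosts and were not tested.

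A read count was listed for 30 of the 59 hosts with 2 or 3 signals (50.8%, 37.5% to 64.1%), against 46.4% of all 295 hosts. For these 30, the hexamers were identical in both lists. Their sisRNAs held 2190 of the 11169 listed reads (19.6%), while making up 21.4% of the 140 counted entries. The count ran from 15 to 265 reads, and the quartiles were 31.2 and 90.8. The middle value was 47 reads, with an order-statistic 95% interval of 37 to 83 over the 30 sisRNAs. The median over all 140 counted entries was 48 (40 to 61), while the 30 were spread from rank 7 to rank 125 of the list. At least 100 reads were listed for 7 of the 30 (23.3%, 9.93% to 42.3%), against 20.7% of all counted entries. Under 20 reads were listed for 3, at ranks 116 to 125 of the 140 entries. The 5 highest, picked as such, held 42.6% of the 2190 reads (40.5% to 44.7%). The interval of the share of reads covers counting error only and does not allow for the 5 being picked as the highest. The other intervals reflect the number of hosts or sisRNAs and not replicate error.

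**Figure D1:**
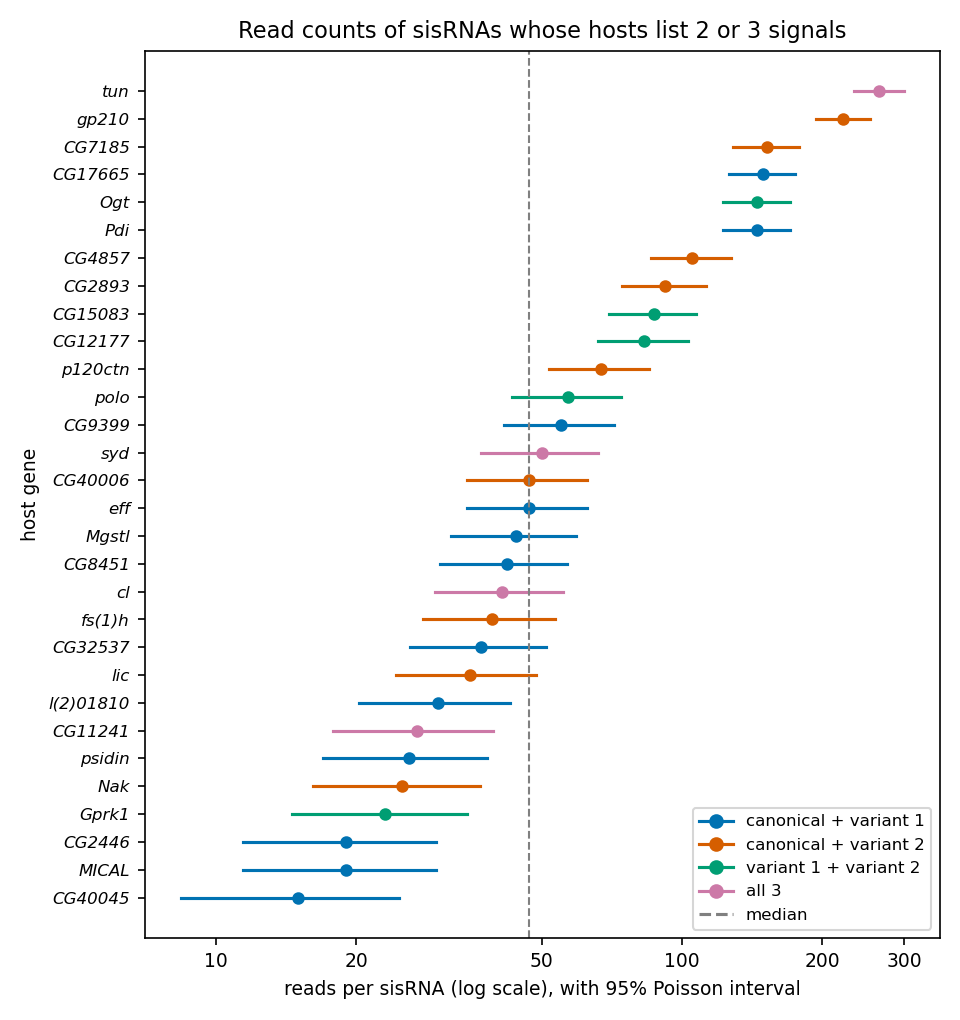
Read counts of the 30 counted sisRNAs whose hosts list 2 or 3 signals, on a log axis, with exact Poisson 95% intervals (lines) and coloured by combination, where variant 1 is auaaaa and variant 2 is auuaaa. The counts run from 15 reads for CG40045 to 265 for tun, the dashed line is the median of 47, and neighbours in the order mostly have overlapping intervals.

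The 7 hosts at or above 100 reads were tun, gp210, CG7185, CG17665, Ogt, Pdi and CG4857. Of these, 5 are in a mixed group of 11 genes for RNA processing, translation, transcription, chromatin, protein glycosylation and the nuclear pore. In that group 6 had a count (54.5%, 23.4% to 83.3%), against 46.4% of all hosts. At least 100 reads were thus listed for 5 of 6 (83.3%), against 20.7% of all counted entries. The groups by role used here were drawn up from the gene names with the counts in view. Such shares therefore depend on that choice, are a description and were not tested. The highest of the 5 was gp210, which encodes a membrane protein of the nuclear pore, with 222 reads (Poisson 95% interval 194 to 253). Its sisRNA is centred at position 1649842 on 2R (all positions in dm3).

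CG7185, annotated today as Cpsf6, encodes a subunit of cleavage factor I, which binds RNA near poly(A) signals and helps to choose the cleavage site. The read count was 152 (129 to 178), with the centre at 8306570 on 3L, and the host lists the canonical signal and variant 2. It was the only one of the 59 from a list of 19 genes of the polyadenylation machinery. The longer list held 3 others of those 19, each with the canonical signal alone and without a read count. These were hrg, which encodes poly(A) polymerase, Pabp2, the nuclear poly(A) binding protein, and Pcf11, a cleavage and termination factor.

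CG17665, annotated as IntS3, encodes a subunit of Integrator, the complex that cuts the 3′ ends of small nuclear RNAs and other transcripts. It had 149 reads (126 to 175) centred at 129320 on 2R. Ogt, also known as sxc, encodes the enzyme that adds O-linked N-acetylglucosamine to nuclear and cytoplasmic proteins, and had 145 reads (122 to 171) at 1195281 on 2R. The counts of CG7185, CG17665 and Ogt differed by less than counting error. CG4857, annotated as tyf, encodes an activator of translation known from the fly's circadian clock neurons, with 105 reads (85.9 to 127) at 4013323 on X.

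The remaining counted gene of this group was fs(1)h, a maternal-effect gene for a bromodomain protein of the BET family, with 39 reads (27.7 to 53.3). It was the only 1 of the 30 with 2 listed centres, at 7953770 and 7941903 on X. They lie 11867 bases apart, farther than the longest annotated intron of the gene at 5760 bases, and the single count covers both. No count was listed under the symbols of Dbp80, a DEAD-box RNA helicase, the chromatin remodeller gene Mi-2, Trl, which encodes GAGA factor, Hrp59, an hnRNP gene annotated as rump, or CrebB-17A, a cAMP-responsive transcription factor.

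The highest count of the 59 hosts lay outside that group. It was tun, with all 3 hexamers and 265 reads (234 to 299) at 11737346 on 2R, an interval that overlaps that of gp210, so the order of these genes was not resolved. Both tun and gp210 were among the 10 highest of all 140 counted entries, at ranks 7 and 8. The other hosts with all 3 hexamers had far lower counts. Those of syd, whose product links kinesin to its cargo, cl, a thioredoxin-like protein needed for eye pigment, and CG11241 were 50 (37.1 to 65.9), 41 (29.4 to 55.6) and 27 (17.8 to 39.3) reads, and Dbp80 and TMI had no count. The centres of syd and CG11241 lie at 7924586 and 22729340 on 3L. Having all 3 signals therefore went with both the top and the lower part of the range.

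Of 9 genes of signalling 5 were counted (55.6%, 21.2% to 86.3%), against 46.4% of all hosts. Their counts ran from 23 to 57 reads. None of the 5 reached 100 reads, and with so few the interval runs up to 52.2%, which includes the 20.7% of all counted entries. The group was drawn up with the counts in view, so this is a description and was not tested. The mitotic kinase gene polo, needed for the divisions of the early embryo, had 57 reads (43.2 to 73.9) at 20303874 on 3L. It was followed by syd and by lic, a MAP kinase kinase of the p38 pathway, with 35 reads (24.4 to 48.7) at 12986810 on X. Nak, a kinase that binds Numb, had 25 reads (16.2 to 36.9) at 18968062 on 2L, and Gprk1, a kinase of G protein-coupled receptors, had 23 (14.6 to 34.5) at 345409 on 2R. The counts of lic, Nak and Gprk1 were within counting error of each other. The hosts without a count were spi, which encodes a ligand of the EGF receptor, dnc, the cAMP phosphodiesterase gene, Tao-1, a kinase upstream of Hippo, and sema-1b, a semaphorin gene.

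Among 8 genes of actin and adhesion 3 were counted (37.5%, 8.52% to 75.5%), against 46.4% of all hosts. The cadherin-binding protein gene p120ctn had 67 reads (51.9 to 85.1) at 495009 on 2R. Psidin and MICAL were lower, at 26 reads (16.98 to 38.10) for psidin, a subunit of an N-terminal acetyltransferase, and 19 reads (11.4 to 29.7) for MICAL, an enzyme that disassembles actin filaments by oxidising them. Their centres are at 15848465 and 5829772 on 3R. SelR, which encodes the methionine sulfoxide reductase that reverses the action of MICAL on actin, was a host too, with the same pair of hexamers as MICAL but no count. The adducin gene hts, the tropomodulin gene tmod, the tropomyosin gene listed as TMI and cno, which encodes the junction protein afadin, also had none.

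Transport, protein handling and metabolism gave 10 counted sisRNAs from 15 hosts (66.7%, 38.4% to 88.2%), against 46.4% of all hosts, which the interval includes. Pdi, which encodes protein disulfide isomerase of the endoplasmic reticulum, stood apart with 145 reads (122 to 171) at 15133365 on 3L. It is the only 1 of the matched hosts with a single annotated intron, of 2775 bases. The calcium exchanger gene CG2893, annotated as zyd, followed with 92 reads (74.2 to 113) and was placed in heterochromatin of X, at 9910 on XHet. The other 8 counts ran from 15 to 55 reads, and neighbours in this order had overlapping intervals. The first were CG9399, of the mitochondrial pyruvate carrier family, with 55 reads (41.4 to 71.6) at 5398664 on 3R, and CG40006, of the CD36 scavenger receptor family, with 47 (34.5 to 62.5) at 22648270 on 2L. The ubiquitin-conjugating enzyme gene eff had 47 reads as well, at 10565463 on 3R, and the glutathione transferase gene Mgstl had 44 (32.0 to 59.1) at 20914446 on X. Lower on the list and all on 2L were CG8451, a solute transporter gene annotated as SLC5A11, with 42 reads (30.3 to 56.8) at 8202983, cl with 41 at 5520918, and the transporter gene dmGlut, listed under an older symbol, with 30 (20.2 to 42.8) at 12027887. The lowest count of the 59 hosts was that of CG40045, also a ubiquitin-conjugating enzyme, with 15 reads (8.40 to 24.7) at 24024061 on 3L. Without a count were the tetraspanin gene Tsp39D, the glucose transporter gene GLUT1, AP-1sigma of the clathrin adaptor, the mitochondrial single-stranded DNA binding protein gene mtSSB, and CG9796, annotated as GILT1.

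For 16 hosts no role is given here. Of these, 6 were counted, namely tun, CG11241, CG15083 with 87 reads (69.7 to 107) at 14723217 on 2R, CG12177 with 83 (66.1 to 103) at 13573707 on X, CG32537 with 37 (26.1 to 51.0) at 19169792 on X and CG2446 with 19 (11.4 to 29.7) at 11606724 on X. The other 10 were CG17514, CG17684, CG41274, CG7510, CG33111, CG12236, CG1632, CG1677, l(1)G0289 and CG3632. The share of the 16 with a count was 37.5% (15.2% to 64.6%), against 46.4% of all hosts.

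Set against hosts with fewer signals, the counts of these sisRNAs overlapped widely with the others. The same 28 symbols were left out of each group compared. The median was 47 reads (37 to 83, n = 30) with 2 or 3 hexamers, 66 (20 to 91, n = 19) with the canonical signal alone, 46 (27 to 85, n = 32) with 1 variant alone, and 36 (25 to 56, n = 38) with none. All of these intervals overlap. The lowest count was 15 reads with 2 or 3 hexamers and 8 or 9 in each of the other groups. The highest was 265 reads with 2 or 3 hexamers, against 869 with the canonical signal alone, 325 with 1 variant alone and 212 with none. With 1 pooled value per sisRNA and no replicate, no test of these differences was made.

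**Figure D2:**
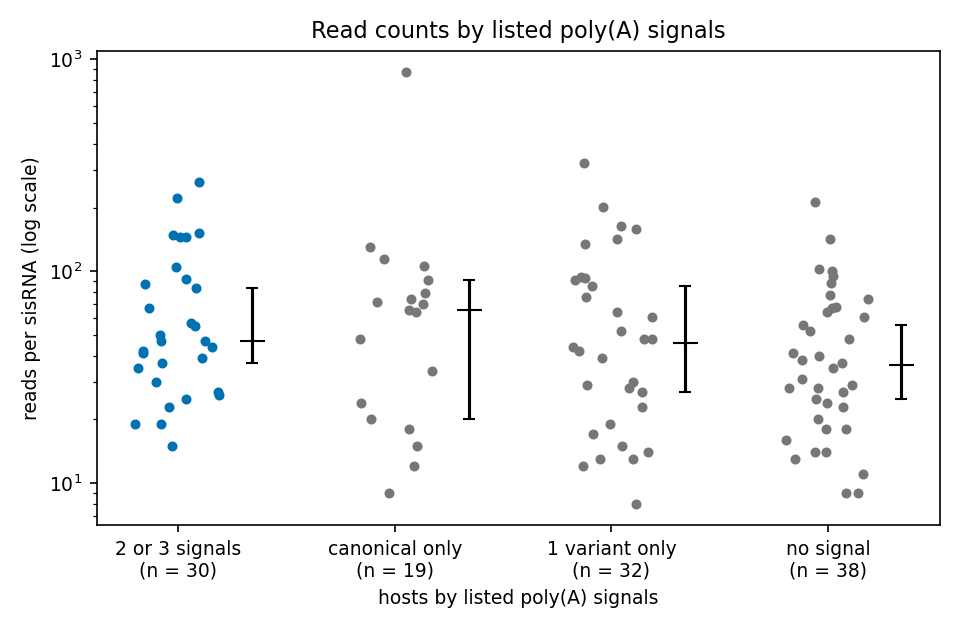
Reads per sisRNA on a log axis for hosts with 2 or 3 signals (n = 30), the canonical signal only (n = 19), 1 variant only (n = 32) and no signal (n = 38); points are sisRNAs and bars are medians with order-statistic 95% intervals. The medians of 47, 66, 46 and 36 reads have overlapping intervals.

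The share of hosts with a count differed in these lists between combinations of hexamers. With variant 2 among the signals, 18 of 26 hosts were counted (69.2%, 48.2% to 85.7%), against 12 of 33 with the canonical signal and variant 1 (36.4%, 20.4% to 54.9%). By combination, the counted hosts with variant 2 were 9 of 13 with the canonical signal, 5 of 7 with variant 1 and 4 of 6 with both. Hosts with variant 2 alone had a count in 19 of 40 cases (47.5%, 31.5% to 63.9%) and hosts with variant 1 alone in 13 of 30 (43.3%, 25.5% to 62.6%). The share was 26.4% with the canonical signal alone (19 of 72, 16.7% to 38.1%) and 57.6% with no hexamer (38 of 66, 44.8% to 69.7%), so a high share was also seen without variant 2. By level, the median was 62 reads (39 to 105, n = 18) with variant 2 among 2 or 3 signals and 39.5 (19 to 55, n = 12) without it. The intervals overlap for both measures, the split was noticed in these data, and it was not tested. How hosts were chosen for counting is not stated in the labels or the lists.

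**Figure D3:**
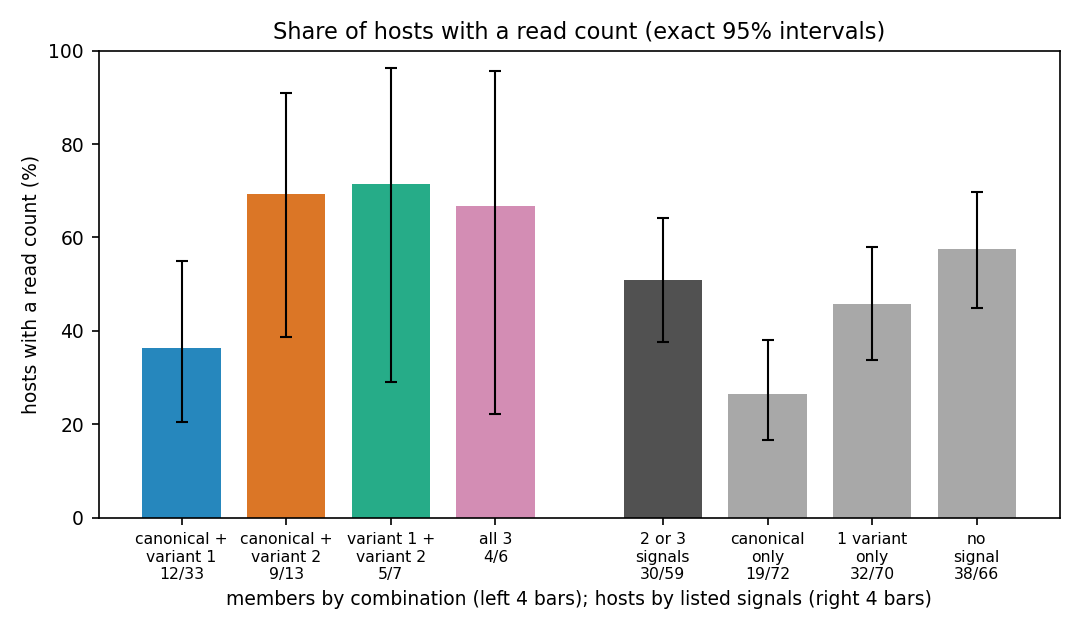
Percentage of hosts with a read count, with exact 95% intervals, for the 4 combinations of signals (left) and for hosts with 2 or 3 signals, the canonical signal only, 1 variant only and none (right); variant 1 is auaaaa and variant 2 is auuaaa. The canonical signal with variant 1 stands at 36.4%, and the combinations with variant 2 stand at 69.2%, 71.4% and 66.7% with wide intervals.

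The annotated length of the hosts was set beside the number of signals. Of the 59, 58 matched a gene of the Ensembl annotation, all protein-coding, and CG41274 did not. Their median longest intron was 3423.5 bases (2364 to 6758, n = 58), against 1782 (1221 to 2439, n = 137) for hosts with 1 hexamer and 1558 (852 to 3081, n = 66) for hosts with none. The ratio of the medians was 1.92 to hosts with 1 hexamer and 2.20 to hosts with none, and the lower end of the first interval lies inside the other intervals. Median gene length was 10370.5 bases (6638 to 13665) with 2 or 3 hexamers, against 6688.5 (6007 to 7977) with 1 and 5515 (3825 to 8497) with none. The number of introns per gene was closer, with medians of 8 with 2 or 3 hexamers, 8 with 1 and 6 with none. The closest group was that with the canonical signal alone, with a median longest intron of 2169 bases (1598 to 5255), a gene length of 7687 (6364 to 11442) and 9 introns. With 1 variant alone these medians were 1198 bases (869 to 2224), 6122 bases (4475 to 7348) and 7 introns. These values describe genes, since no sisRNA was assigned to an intron and the sequence searched for hexamers is not given. Whether a longer searched sequence goes with more listed hexamers was not tested.

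The longest introns belonged mostly to hosts without a count. Among the hosts with 2 or 3 signals, the median longest intron was 2072 bases (1032 to 4577) for the 30 counted and 7735.5 (2703 to 13984) for 28 not counted. An intron over 10000 bases was annotated in 17 of the 58 (29.3%), against 56 of the hosts with an annotated intron in the whole list (19.4%). Of the 17, 4 were counted (23.5%, 6.81% to 49.9%), tun (53559 bases), CG40006 (36881), Gprk1 (30025) and MICAL (14590), against 13 of the 56 in the whole list (23.2%). At the other end, 11 had no intron of 1000 bases, and 9 of these were counted (81.8%, 48.2% to 97.7%), against 62.4% of such hosts in the whole list and 46.4% of all hosts. The same order held for hosts with 1 hexamer, at 1078.5 bases for counted and 3488 for uncounted hosts, and for hosts with none, at 890.5 for counted and 3014.5 for uncounted hosts, so it was not confined to several signals. Across genes, Spearman's rho between the read count and the longest intron was 0.05 for the 30 counted hosts with 2 or 3 signals, against 0.33 for all 136 counted hosts with an annotated intron, which include those 30. No interval was computed for either rho, and the difference between them was not tested. All these values are descriptions, since all counts come from the same column.

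**Figure D4:**
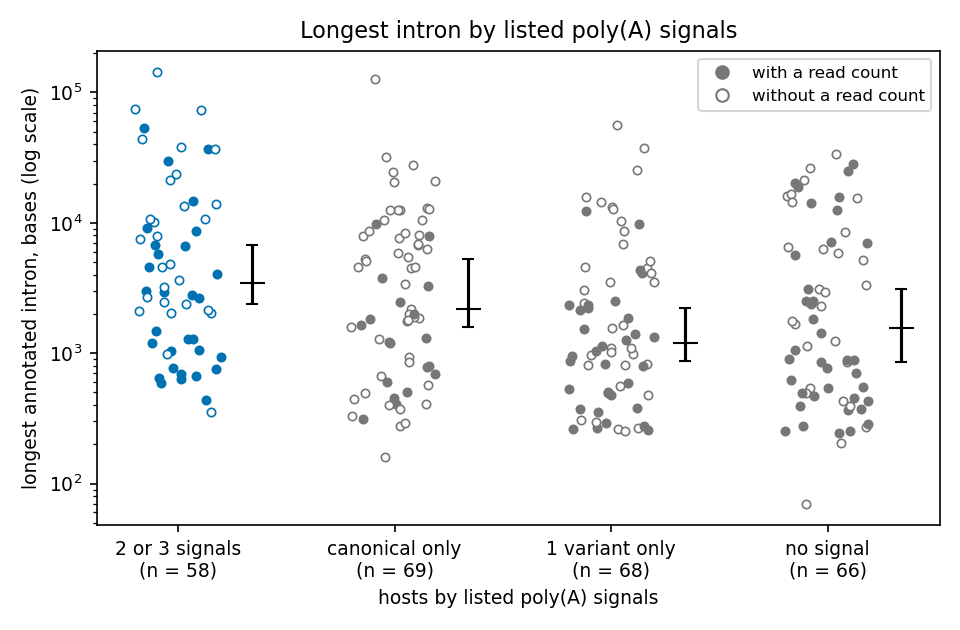
Longest annotated intron of each host in bases on a log axis, for hosts with 2 or 3 signals (n = 58), the canonical signal only (n = 69), 1 variant only (n = 68) and no signal (n = 66); filled points have a read count, open points do not, and bars are medians with order-statistic 95% intervals. The medians are 3423.5, 2169, 1198 and 1558 bases, and of the 17 points above 10000 bases with 2 or 3 signals 4 are filled.

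Some of these hosts lie near centromeres. Genes next to a centromere can be embedded in heterochromatin, where introns are often long and rich in repeats. Nearness was set by gene order here, and no border of heterochromatin was used. In the annotated gene order, 15 of 57 placed hosts with 2 or 3 signals fell within the 10% of genes closest to their centromere (26.3%, 15.5% to 39.7%), against 17.9% of all 285 placed hosts. The shares were 14.8% (9.29% to 21.9%, n = 135) with 1 hexamer and 10.8% (4.44% to 20.9%, n = 65) with none, and the intervals overlap. Of the hosts with 1 hexamer, those with the canonical signal alone were at 17.6% (9.47% to 28.8%, n = 68) and those with 1 variant at 11.9% (5.30% to 22.2%, n = 67). Within the nearest 5%, the share was 22.8% (12.7% to 35.8%) with 2 or 3 hexamers, against 12.3% (8.71% to 16.7%) of all placed hosts, 9.63% (5.23% to 15.9%) with 1 hexamer and 4.62% (0.962% to 12.9%) with none. It was 13.2% (6.23% to 23.6%) with the canonical signal alone and 5.97% (1.65% to 14.6%) with 1 variant alone. On 2R 6 hosts were near the centromere (CG17684, CG17665, Gprk1, p120ctn, Ogt and gp210), and on 2L 3 (CG40006, Tsp39D and spi). On 3L there were 3 (Dbp80, CG40045 and CG11241), on X CG2893 and Mgstl, and on 3R cno.

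Of the 15 hosts near centromeres 10 were counted (66.7%, 38.4% to 88.2%), against 20 of 42 elsewhere (47.6%, 32.0% to 63.6%). Among all 295 hosts the share was 46.4%. Near centromeres, 7 of 20 hosts with 1 hexamer and 6 of 7 with none were counted. The counts of the 10 with 2 or 3 signals ran from 15 to 222 reads, so they were found across most of the range. Their median was 57 (23 to 149), against 44.5 (35 to 83) elsewhere. The longest introns of the 15 hosts were longer, with a median of 7959 bases (2932 to 30025) against 2683 (2034 to 4610). By combination, 10 of 26 hosts with variant 2 among their signals were near centromeres (38.5%, 20.2% to 59.4%). With the canonical signal and variant 1 there were 5 of 31 (16.1%, 5.45% to 33.7%), close to the 17.9% of all placed hosts. The intervals overlap. The part of position and intron length in the number of signals was not tested. Without the hosts near centromeres the ratio of median longest introns between hosts with 2 or 3 hexamers and hosts with 1 was 1.51.

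**Figure D5:**
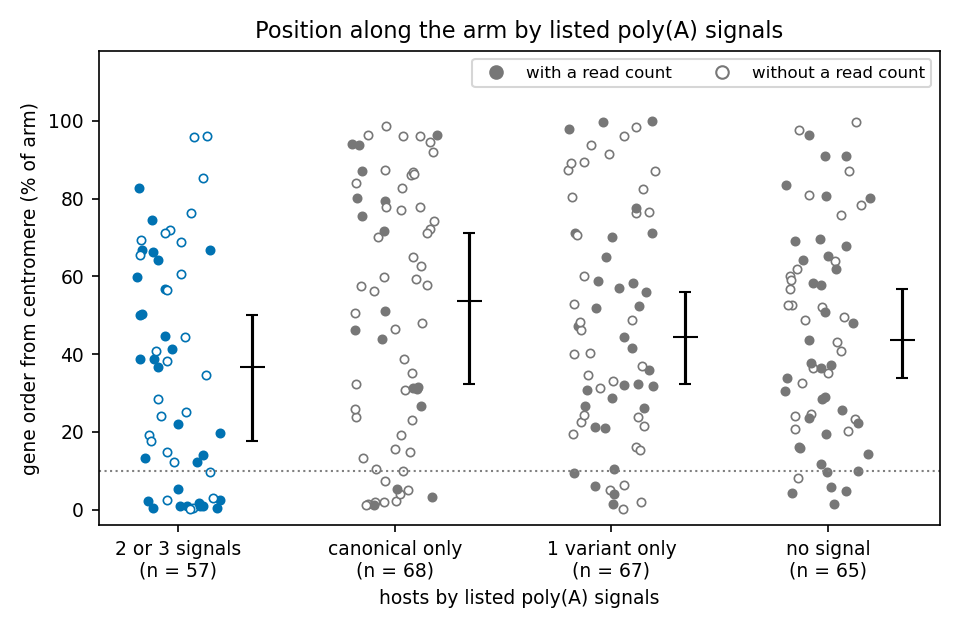
Place of each host in the gene order of its arm, from the centromere (0%) to the far end (100%), for hosts with 2 or 3 signals (n = 57), the canonical signal only (n = 68), 1 variant only (n = 67) and no signal (n = 65); filled points have a read count, open points do not, bars are medians with order-statistic 95% intervals, and the dotted line marks 10%. Below the line lie 15, 12, 8 and 7 hosts.

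By chromosome the 59 hosts were spread much like the whole list. There were 16 on X (27.1%, against 22.03% of the list), 13 on 3R (22.03% against 21.4%), 12 on 3L (20.3% against 20.3%), 11 on 2R (18.6% against 19.7%) and 7 on 2L (11.9% against 16.3%). The canonical signal with variant 1, which 33 of the 59 hosts list (55.9%), was listed for 2 of 7 hosts on 2L, 5 of 11 on 2R, 6 of 12 on 3L, 11 of 13 on 3R and 9 of 16 on X. On 2R 4 of 7 counted hosts had at least 100 reads (tun, gp210, CG17665 and Ogt; 57.1%, 18.4% to 90.1%), an interval that includes the 20.7% of all counted entries. Among all counted hosts of the longer list on 2R, which include these 7, the share was 10 of 21 (47.6%, 25.7% to 70.2%). The other arms had 2 such hosts on 3L, 1 on X and none on 2L or 3R, so 3 remained without 2R. The 2R counts had a median of 145 reads (23 to 265), and 3 of these 4 hosts are among those near the centromere.

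Overlapping transcripts limit some of these values. The authors marked 4 of the 59 hosts with a cis-natural antisense transcript in one or the other list, of which CG8451, eff and Mgstl were counted and l(1)G0289 was not. SelR carries the remark AS, which the lists do not explain. No annotated gene overlaps eff or SelR on the other strand, so the annotation lacks the antisense transcript that the authors marked for eff. In the annotation, 34 of the 58 matched hosts overlap a gene on the other strand (58.6%, 44.9% to 71.4%), 15 of the 30 counted ones among them, against 136 of 290 matched hosts in the whole list (46.9%, 41.0% to 52.8%). Neither the labels nor the lists say whether strand was used in counting, so reads of the host and of its antisense partner cannot be told apart. The centre of Mgstl lies 1992 bases from that of CG1753, which had 9 reads. The next closest was CG9399, at 10161 bases from CG9393 with 13 reads, and the other centres of these hosts lay farther from any other entry, with CG2893 the only entry on XHet.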

How the data were processed

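The authors deposited 2 lists without normalization, 1 of 295 hosts with their hexamers and 1 of 140 sisRNAs with whole-number read counts. Positions are in dm3 according to the submitters' processing notes. How reads were aligned and counted and how hexamers were sought is not stated in the labels or the lists, and the library depth is unknown. Hosts with 2 or 3 different hexamers were taken by symbol, without bracketed remarks, after leaving out 28 symbols. The members and gene lists were chosen with earlier results of these data known. Every host of the group is named, counted ones with their reads.

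Exact Poisson intervals (counts), Clopper-Pearson intervals (shares) and order-statistic intervals (medians) were computed at 95% and tested on simulated data. Reads carry no molecular identifiers and are not independent, so intervals understate the error. Symbols were matched to Ensembl release 115 (BDGP6.54) and RefSeq synonyms, 39 by current symbol, 17 by synonym and 2 (sema-1b and TMI) with case ignored. CG17514 matched a gene on another arm and was not placed. Gene order used 11740 protein-coding genes with an intron, no coordinate was moved between builds, and no genome sequence was used here. Of the marker lists for maternal egg genes (12 genes) and follicle cells (13 genes), 0 genes were listed hosts, and a list of hosts is no check of the tissue. Computation used Python 3.11.15, numpy 2.4.6, scipy 1.17.1 and matplotlib 3.10.9.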

Additional observations from a re-analysis of the deposited data

How the results depend on the processing

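No paired analysis was possible because there was 1 library per group and the counts name none. The median read count stayed within its interval under all 13 alternatives run (42 to 62 reads). The number of hosts with at least 100 reads was 3 without arm 2R and 5 to 9 under the other 8 alternatives. The share with a read count was 69.2% without hosts that list the canonical signal and variant 1 alone, and 47.9% to 56.5% under the other 9. The share of reads in the 5 highest was 45.0% with exactly 2 hexamers, 56.9% without the hosts of the canonical signal and variant 1, 45.4% without remarked entries, and 46.5%, 46.8%, 50.8%, 45.7% and 53.7% without arms 2L, 2R, 3L, 3R and X, since fewer entries remain in the total. The share near centromeres was 40.4% with the nearest 20% of genes, a larger part of the arm by construction, against 26.0% of all placed hosts. The median longest intron was 2683 to 4577 bases over 7 alternatives, and its ratio to hosts with 1 hexamer was 1.45 to 2.44 over 9, including gene length (1.55) and median intron length (1.45). The alternatives on centromere distance, name matching and arms for intron length were chosen after seeing the data. The planned comparison of hexamers inside annotated introns was not run, as no genome sequence was used here. For the 3 hosts under 20 reads, counting error spans more than 1.5 times in either direction.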

Other observations

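A further 8 entries with 2 or 3 hexamers are not among the 59 hosts. The 6 set aside by symbol were Nipped-B with 383 reads (Poisson 95% interval 346 to 423), coro with 275 (243 to 309), Fmr1 with 53 (39.7 to 69.3), Gel with 47 (34.5 to 62.5), and AGO3 and sqd without a count. With these 6 kept, the median was 48.5 reads over 34 counted sisRNAs. The other two, corp with 164 reads (140 to 191) and CG33260 with 138 (116 to 163), are in the counted list with the canonical signal and variant 1 but not in the longer list.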
